A study of Homo sapiens with 4 samples.

Results

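Cyclins and cyclin-dependent kinases (CDKs) that drive the cell cycle were examined in the human glioblastoma cell line U87-MG after knockdown of MAGED2, a gene of the melanoma antigen family on the X chromosome. The set holds 10 genes, found by their symbols among the 23444 gene entries of the deposited tables: the cyclins CCNA2, CCNB1, CCNB2, CCND1, CCND2, CCND3, CCNE1 and CCNE2, and the kinases CDK1 and CDK2. RNA was sequenced in 4 libraries: 2 from cells with a short hairpin RNA against MAGED2 (shMAGED2) and 2 from cells with a negative control hairpin (shCON). The labels disagree on the cells: the series design calls the knockdown stable, whereas the treatment protocol has hairpins directed at ZDHHC15, introduced transiently, with cells collected 36 h later. The sources do not settle which applies. Only 1 cell line was used, hairpin sequences are not stated, and no label says that the replicates were grown apart, so each p-value speaks for the spread among these 4 libraries, which may be technical.

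Cyclins are regulatory subunits whose levels rise and fall through the cell cycle and which switch on CDKs. Cyclins of the D family respond to growth signals and act with CDK4 or CDK6 in G1, where they phosphorylate the retinoblastoma protein and release E2F factors. E cyclins with CDK2 start DNA replication, cyclin A2 acts with CDK2 in S phase and with CDK1 later, and B cyclins with CDK1 bring about mitosis. The genes of E and A cyclins and of CDK1 and CDK2 are known targets of E2F factors, and those of cyclin A2, the B cyclins and CDK1 are also known targets of the MuvB complex with MYBL2 and FOXM1 in late cycle. In bulk RNA a larger share of cycling cells and more RNA per cycling cell cannot be told apart.

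The libraries held 31160205 and 36234336 counts in shMAGED2 and 34235565 and 28673774 in shCON. MAGED2 itself had 526 and 795 counts in shMAGED2 libraries and 6090 and 5225 in shCON libraries, a log2 change of -3.16 (SE 0.13, edgeR adjusted p = 0.000654), and ZDHHC15 had 0 counts in all 4. The shMAGED2 pair differed from each other by far more than the shCON pair (chi-square per degree of freedom 89.5 and 7.42). Of 8 glial and neural progenitor markers, VIM and CD44 were abundant, GFAP averaged 1.17 CPM in shMAGED2 and 2.65 CPM in shCON (CPM, counts relative to the library size scaled by trimmed mean of M-values, TMM), AQP4 had 0 counts and SOX2 no more than 4 counts in a library. NES rose (log2 change 1.88, adjusted p = 0.002) and OLIG2 fell (-1.45, adjusted p = 0.0158), while the 8 summed to 10068 and 8614 CPM in shMAGED2 libraries and 8770 and 8529 CPM in shCON libraries. The 14 markers of other cell types summed to 6.28 and 4.44 CPM in shMAGED2 libraries and 4.01 and 6.38 CPM in shCON libraries, and KRT5 and MOG were among those with 0 counts throughout; their part in the results was not tested.

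Of the 10 genes, 8 were higher in MAGED2 knockdown cells. CCND2 had too few counts to be tested, and of the 9 tested genes 8 rose and 0 fell (quasi-likelihood test of edgeR, p adjusted by Benjamini-Hochberg over 15293 genes, threshold 0.05). Of all tested genes 23.9% changed, with 12.3% higher and 11.6% lower. All 8 rose at least 2-fold, against 4.43% of tested genes. The set and the lists below were chosen with earlier results of these data known, so such counts are no independent test. CCND1 was the tested gene that did not pass. The 9 genes had a median log2 change of 1.30, shMAGED2 minus shCON, beside 0.00 over all genes tested. In 8 of them both shMAGED2 libraries lay above both shCON libraries, which was also the case for 33.0% of all tested genes. The 8 that rose stood between the 93.5th and the 97.8th percentile of log2 changes over all tested genes.

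**Figure D1:**
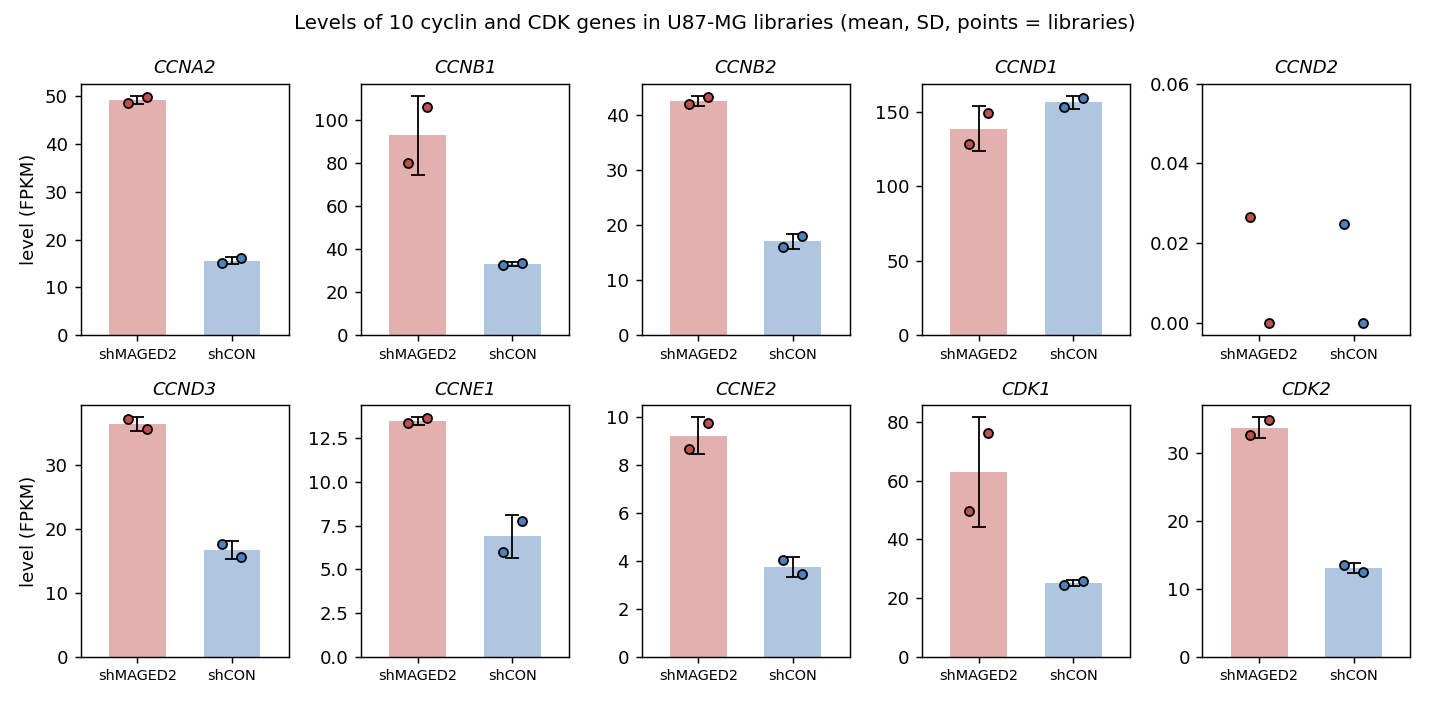
Deposited FPKM (fragments scaled to gene length and library total) of each gene in shMAGED2 (left) and shCON (right) libraries; bars are means, whiskers the SD over 2 libraries and points the libraries. CCND2 is drawn as points only, since it is listed at 0 in 1 library of each group; CCND1 is the only abundant gene that is not higher in shMAGED2.

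Among the D cyclins, which open G1, the response was split. CCND1 (cyclin D1, the D cyclin most often amplified in human tumours; chromosome 11, 69641087 to 69654474, plus strand, hg38) had 604 and 656 CPM in shMAGED2 libraries, against 669 and 696 CPM in shCON libraries. Both shMAGED2 values were below both shCON values, as for 33.0% of tested genes. The log2 change was -0.12 (SE 0.09, 95% interval -0.34 to 0.11) with an adjusted p = 0.403. Without shMAGED2 replicate 2 the log2 change was -0.18. That fit has 1 shMAGED2 library and takes its spread from the shCON pair. On the opposite strand CCND1 shares 497 exonic bases with LTO1. LTO1 had 1152 and 1692 counts in shMAGED2 libraries and 1515 and 1337 counts in shCON libraries.

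CCND3 (cyclin D3; chromosome 6, 41934933 to 42050357, minus strand) had 83.5 and 74.9 CPM in shMAGED2 libraries and 37.3 and 33.4 CPM in shCON libraries. The groups did not overlap, and the lowest shMAGED2 library was 2.01 times the highest shCON library. The log2 change was 1.16 (SE 0.12, adjusted p = 0.00246). CCND2 (cyclin D2; chromosome 12, 4273772 to 4305350, plus strand) had 6 and 0 counts in shMAGED2 libraries and likewise 6 and 0 counts in shCON libraries, so that no fold change is given. A count of 0 allows up to 0.0817 CPM in shMAGED2 replicate 2 and 0.102 CPM in shCON replicate 2 (limits from 3 counts, counting error only). On the same strand CCND2 shares 989 exonic bases with AC008012.1, which had 0 counts in all 4 libraries. How reads matching several genes were treated is not stated.

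On FPKM, the deposited values scaled to gene length, the sum of the D cyclins overlapped between the groups while their mix differed. Their summed FPKM was 165 and 185 in shMAGED2 libraries and 171 and 175 in shCON libraries. CCND3 made up 22.5% and 19.3% of that sum in shMAGED2 libraries, against 10.4% and 8.95% in shCON libraries. The ratio of CCND1 to CCND3, which does not depend on how libraries are scaled, was 3.45 and 4.19 in shMAGED2 and 8.66 and 10.2 in shCON. Its groups did not overlap, and the exact two-sided permutation test gave p = 0.333, the smallest that 2 against 2 libraries allow.

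Both E cyclins, the activators of CDK2 at the start of replication, rose. CCNE1 (cyclin E1; chromosome 19, 29811898 to 29824308, plus strand) had 28.9 and 27.4 CPM in shMAGED2 libraries, against 12.5 and 14.7 CPM in shCON libraries. The log2 change was 1.05 (SE 0.15, adjusted p = 0.00646), and without shCON replicate 1 it was 0.94 with an adjusted p = 0.0657, past the threshold no longer. CCNE2 (cyclin E2; chromosome 8, 94879770 to 94896678, minus strand) had 24.2 and 19.7 CPM in shMAGED2 libraries, against 7.82 and 9.99 CPM in shCON libraries.

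The CCNE2 groups did not overlap, and its log2 change was 1.30 (SE 0.20, adjusted p = 0.00837); without shCON replicate 1 it was 1.13 with an adjusted p = 0.0512. CCNE2 shares 1629 exonic bases with INTS8, a subunit gene of the Integrator complex on the opposite strand, and whether reads were counted by strand is not stated, so reads of the shared bases cannot be assigned to either gene. INTS8 had 1618 and 2292 counts in shMAGED2 and 1596 and 1294 counts in shCON (log2 change 0.39, SE 0.12, adjusted p = 0.0602). CCNE2 itself had 712 and 722 counts in shMAGED2 and 273 and 293 counts in shCON. The CCNE2 values of the 2 deposited tables did not rank the replicates alike. In FPKM replicate 1 and 2 had 8.69 and 9.77 in shMAGED2 and 4.04 and 3.45 in shCON, the reverse of the order in CPM within each group, and the groups did not overlap on either scale.

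Summed over both E cyclins, FPKM averaged 22.7 ± 0.966 in shMAGED2 and 10.6 ± 0.808 in shCON (SD, n = 2 each). CCNE2 made up 39.5% and 41.8% of the sum in shMAGED2, against 40.2% and 30.8% in shCON, so that the shares overlapped.

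CDK2 (the kinase of the E and A cyclins; chromosome 12, 55966769 to 55972784, plus strand) had 78.5 and 81.2 CPM in shMAGED2 libraries, against 32.2 and 29.5 CPM in shCON libraries. The log2 change was 1.37 (SE 0.11, adjusted p = 0.00127), and the replicates of each group were close, within 1.03-fold in shMAGED2 and 1.09-fold in shCON. On the opposite strand CDK2 shares 565 exonic bases with the antisense gene AC025162.1, which has no entry in the count table, and 89 with PMEL, which had at most 62 counts in a library. Reads of the shared bases cannot be assigned to either gene without strand.

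CCNA2 (cyclin A2; chromosome 4, 121816444 to 121823933, minus strand) had the smallest p of the set, at rank 45 of all tested genes. It had 149 and 143 CPM in shMAGED2 libraries, against 43.0 and 45.9 CPM in shCON libraries. The lowest shMAGED2 library was 3.11 times the highest shCON library, and the log2 change was 1.71 (SE 0.10, adjusted p = 0.000774). CCNA2 shares 254 exonic bases with EXOSC9, an RNA exosome gene on the opposite strand that itself rose by less (log2 change 0.66, SE 0.11, adjusted p = 0.00993).

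The mitotic B cyclins rose together. CCNB1 (cyclin B1, the main activator of CDK1 at entry into mitosis; chromosome 5, 69167010 to 69178245, plus strand) had 186 and 230 CPM in shMAGED2 libraries, against 71.3 and 69.7 CPM in shCON libraries. The log2 change was 1.56 (SE 0.13, adjusted p = 0.00135). CCNB2 (cyclin B2, found mainly at the Golgi; chromosome 15, 59105078 to 59125045, plus strand) had 72.7 and 75.9 CPM in shMAGED2 libraries, against 29.6 and 32.0 CPM in shCON libraries, a log2 change of 1.27 (SE 0.11, adjusted p = 0.00153).

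CDK1 (the mitotic kinase; chromosome 10, 60778331 to 60794852, plus strand) had 105 and 148 CPM in shMAGED2 libraries, against 46.9 and 49.5 CPM in shCON libraries. The groups did not overlap, yet the shMAGED2 replicates differed 1.40-fold, more than for any other tested gene of the set. The log2 change was 1.39 (SE 0.17, adjusted p = 0.00453). In a test of log2(FPKM + 1) without a filter on low values it missed the threshold, with a log2 change of 1.27 and an adjusted p = 0.0587.

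**Figure D2:**
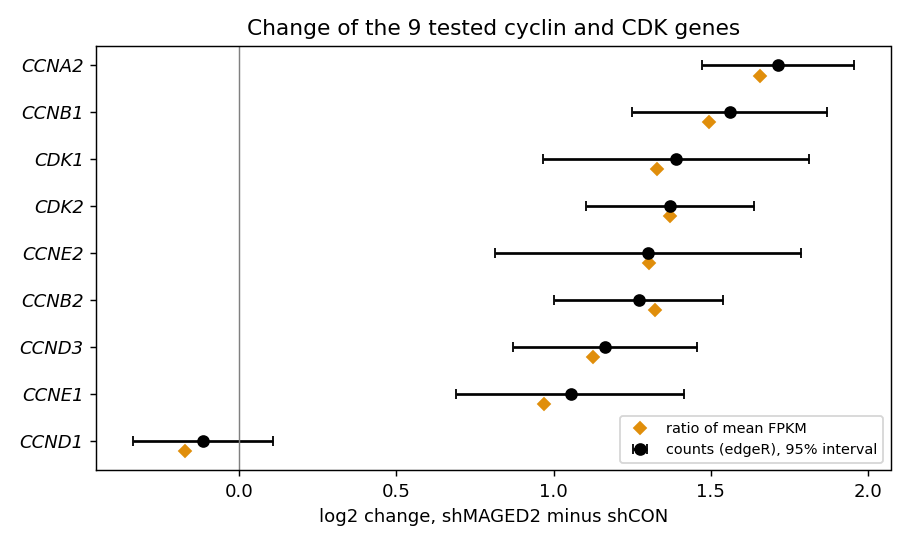
Log2 change (shMAGED2 minus shCON) of the 9 tested genes. Black points and bars are the edgeR estimate from counts with its 95% interval, and orange diamonds the log2 ratio of mean FPKM; the interval of CCND1 spans 0, from -0.34 to 0.11, and the other 8 lie above 0.

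CCNB1 and its kinase CDK1 were both lower in shMAGED2 replicate 1 than in replicate 2, by 1.23-fold and 1.40-fold on CPM. CCND1, CCNB2 and CDK2 had the same order, by 1.085-fold, 1.044-fold and 1.034-fold. In shCON replicates 1 and 2 CCNB1 had 71.3 and 69.7 CPM and CDK1 46.9 and 49.5 CPM, in opposite order. On CPM, CCNE2, CCND3, CCNE1 and CCNA2 were higher in shMAGED2 replicate 1, by 1.23-fold, 1.11-fold, 1.052-fold and 1.044-fold. On FPKM, CCND3 kept this order (37.2 and 35.6 in shMAGED2 replicates 1 and 2). CCNE2 (8.69 and 9.77), CCNE1 (13.3 and 13.6) and CCNA2 (48.6 and 49.8) reversed it. Ratios between partners or relatives mostly overlapped between the groups. CCNB1 relative to CCNB2 in FPKM was 1.90 and 2.45 in shMAGED2 and 2.01 and 1.87 in shCON (exact two-sided permutation p = 0.667). CDK1 relative to CDK2 was 1.53 and 2.19 in shMAGED2 and 1.80 and 2.06 in shCON (exact permutation p = 1). CCNB1 relative to CCNA2 was 1.64 and 2.12 in shMAGED2 and 2.14 and 2.09 in shCON, and CCNE2 relative to CCNE1 was 0.652 and 0.717 in shMAGED2 and 0.671 and 0.446 in shCON (exact permutation p = 0.667 for each). Of these 5 ratios, only that of CCND1 to CCND3 separated the groups, and none can pass the threshold with 2 libraries in each group.

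The promoters of the late-cycle genes are shown for the motifs that the MuvB complex and the factor NF-Y are known to bind there, a CHR (cell cycle genes homology region; TTTGAA or TTCGAA) and the CCAAT box. Each sequence is the 250 bases before the RefSeq start on GRCh38.p14, 5′ to 3′ on the strand of the gene, with both motifs in capitals on either strand (ATTGG is CCAAT on the opposite strand); CTTGAA, a CHR variant added after the sequences were read, is in capitals too. They lie at chr4:121823884-121824133 (CCNA2, minus strand), chr5:69166900-69167149 (CCNB1, plus strand), chr15:59104896-59105145 (CCNB2, plus strand) and chr10:60778081-60778330 (CDK1, plus strand). The upstream of 2 annotated starts is used for CDK1.
CCNA2: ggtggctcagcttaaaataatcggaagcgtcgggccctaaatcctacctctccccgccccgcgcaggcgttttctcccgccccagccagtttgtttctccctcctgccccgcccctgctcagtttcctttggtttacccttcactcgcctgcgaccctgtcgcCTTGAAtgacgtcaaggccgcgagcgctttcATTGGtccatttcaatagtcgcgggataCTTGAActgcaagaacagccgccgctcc
CCNB1: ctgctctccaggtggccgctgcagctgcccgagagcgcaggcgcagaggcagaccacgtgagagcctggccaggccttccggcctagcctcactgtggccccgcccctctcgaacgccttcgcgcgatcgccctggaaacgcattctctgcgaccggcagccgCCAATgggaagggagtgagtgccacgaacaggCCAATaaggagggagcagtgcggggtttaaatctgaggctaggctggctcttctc
CCNB2: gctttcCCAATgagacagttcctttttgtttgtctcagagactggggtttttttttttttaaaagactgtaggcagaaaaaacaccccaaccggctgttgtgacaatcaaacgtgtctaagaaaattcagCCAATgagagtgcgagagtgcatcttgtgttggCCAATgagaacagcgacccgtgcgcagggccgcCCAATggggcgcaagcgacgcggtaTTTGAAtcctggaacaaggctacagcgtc
CDK1: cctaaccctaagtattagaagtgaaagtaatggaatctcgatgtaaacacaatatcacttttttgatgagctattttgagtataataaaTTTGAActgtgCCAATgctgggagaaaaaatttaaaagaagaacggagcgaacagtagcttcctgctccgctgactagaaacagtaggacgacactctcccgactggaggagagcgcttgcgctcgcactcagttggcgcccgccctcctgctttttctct

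The CCNB2 promoter held 4 CCAAT boxes, 3 of them at -120 to -116, -87 to -83 and -54 to -50 from the start, and TTTGAA at -29 to -24. The CCNB1 promoter held CCAAT at -87 to -83 and -55 to -51, at nearly the same distances, and neither TTTGAA nor TTCGAA. In the CCNA2 promoter a CCAAT box on the opposite strand at -56 to -52 was followed by CTTGAA at -28 to -23, with another CTTGAA at -87 to -82. The CDK1 window printed here held TTTGAA at -161 to -156 and CCAAT at -150 to -146. From the other CDK1 start, 147 bases downstream, CCAAT boxes lay on the opposite strand at -78 to -74 and -46 to -42 and TTTGAA at -69 to -64, -13 to -8 and, on the opposite strand, 10 to 15.

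In windows of 300 bases (250 before and 50 after the start), 6 of the 10 genes had an entry, with 9 windows among them. Of these, 3 were of CCND3 and 2, which overlap, of CDK1, so the windows are not separate genes. CCAAT was in 7 of the 9 and in 34.6% of all 35116 windows, and 2 or more copies were in 3 of the 9 and in 10.8% of all. TTTGAA or TTCGAA was in 3 of the 9 (those of CCNB2 and CDK1) and in 16.4% of all, and CTTGAA in 1 of the 9 and in 11.2% of all. An E2F motif (TTTCCCGC, TTTGGCGC, TTTCGCGC or TTTGCCGC) was found in 2 of the 9, the overlapping windows of CDK1, which share 1 copy of TTTCGCGC, and in 3.31% of all windows, and TATAAA in 0 of the 9 and 11.5% of all. CCNE1 held none of these motifs, and the 3 windows of CCND3 held CCAAT in 2 of them.

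Per length, CCND1 was the most abundant gene of the set in both groups. In shMAGED2 the order by mean FPKM was CCND1 (139), CCNB1 (92.8), CDK1 (63.0), CCNA2 (49.2), CCNB2 (42.6), CCND3 (36.4), CDK2 (33.7), CCNE1 (13.5), CCNE2 (9.23) and CCND2. In shCON it was CCND1 (156), CCNB1 (33.0), CDK1 (25.1), CCNB2 (17.0), CCND3 (16.7), CCNA2 (15.6), CDK2 (13.0), CCNE1 (6.88), CCNE2 (3.74) and CCND2. Neighbours that did not differ beyond the larger of their SDs were CDK1 and CCNA2 in shMAGED2, and CCNB2 and CCND3, as well as CCND3 and CCNA2, in shCON. CCNA2 thus stood above CCNB2 and CCND3 in shMAGED2, and was not separated from CCND3 in shCON.

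Of the summed FPKM of the 8 cyclins of the set, CCND1 took a smaller part in shMAGED2 and each other tested cyclin a larger one. The G1 cyclin CCND3 was among them, with 10.4% and 8.74% in shMAGED2 and 7.24% and 6.17% in shCON. Cyclins outside the set were left out of the sum. The 8 cyclins summed to 358 and 407 FPKM in shMAGED2 libraries and 245 and 254 FPKM in shCON libraries. CCND1 made up 35.8% and 36.7% of that sum in shMAGED2, against 62.7% and 62.8% in shCON. CCNB1 made up 22.3% and 26.0% in shMAGED2 and 13.2% in each shCON library, and CCNA2 13.6% and 12.2% in shMAGED2 against 6.18% and 6.33% in shCON. On CPM, which does not allow for gene length, the share of CCND1 was 53.1% in shMAGED2 and 77.0% in shCON. The shares are relative: the level of CCND1 itself did not pass the test.

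**Figure D3:**
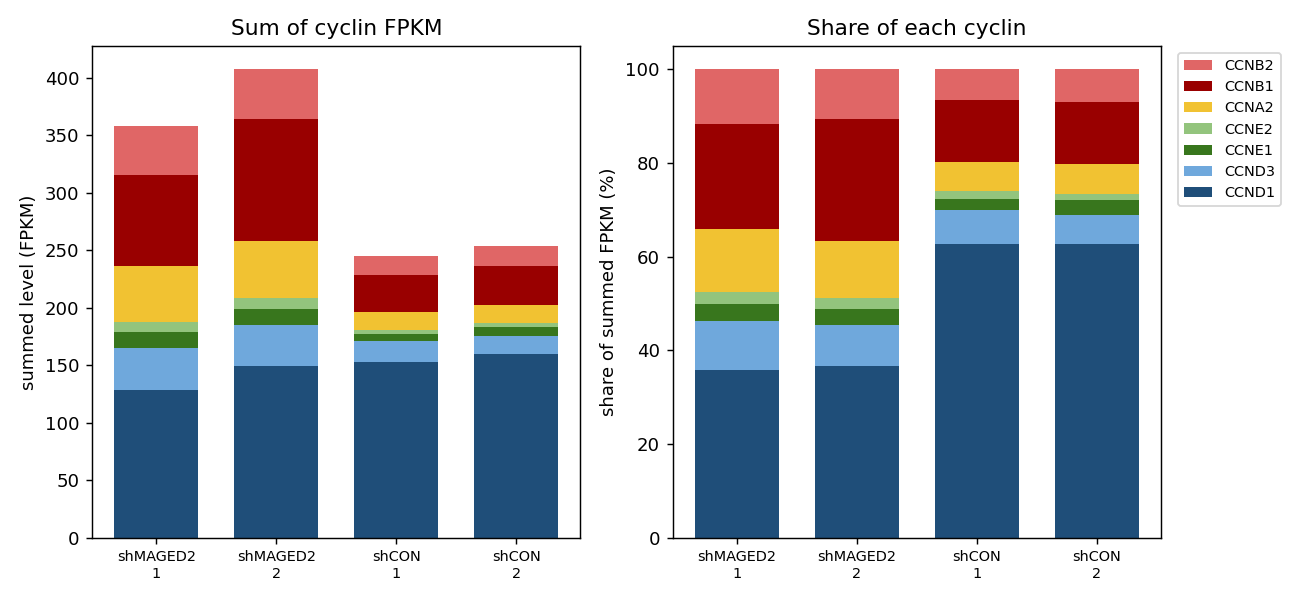
Summed FPKM of the cyclins in each library (left) and the share of each in that sum (right), shMAGED2 libraries left of shCON libraries; CCND2 is too low to be seen. The dark blue CCND1 part has a similar height in the left panel and makes up 35.8% and 36.7% in shMAGED2, against 62.7% and 62.8% in shCON, in the right one.

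Other cyclins, which mostly serve transcription or have other roles, did not follow. Of 22 listed, 21 were in the tables, 17 were tested, 2 rose and 4 fell, with a median log2 change of -0.20. Among all tested genes 12.3% rose and 11.6% fell. CCNF, the cyclin-like subunit of a ubiquitin ligase in G2, rose (28.3 and 32.1 CPM in shMAGED2 libraries, 9.20 and 9.41 CPM in shCON libraries; log2 change 1.70, SE 0.15, adjusted p = 0.00153), as did CCNH, a subunit of the CDK-activating kinase (0.47, adjusted p = 0.0334). CCNG1, a p53-responsive cyclin (-0.81, adjusted p = 0.00425), and CCNL2, a cyclin of RNA splicing (-0.82, adjusted p = 0.00651), fell. CCNI (-0.58, adjusted p = 0.00884) and CCNG2 (-0.92, adjusted p = 0.0175) fell as well; they and CCNH were named after their values were seen. Without shCON replicate 1 or 2, 1 of the 17 rose, and without shCON replicate 2, 2 fell.

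Other CDKs moved little. Of 19 listed, 17 were tested, 4 rose and 1 fell, beside 12.3% and 11.6% of all tested genes. Their log2 changes ran from -0.52 to 0.56 with a median of 0.03. CDK14 (0.48, adjusted p = 0.0309) and the transcription kinase CDK12 (0.51, adjusted p = 0.0399) rose, and CDK13, a relative of CDK12, fell (-0.52, adjusted p = 0.0133). CDK6 (adjusted p = 0.0491) and CDK9 (adjusted p = 0.04997) passed narrowly; both were chosen with their values in view. All 4 of these rises missed the threshold without shCON replicate 1 or 2 and in the tests of FPKM, whereas without shMAGED2 replicate 2, 8 CDKs rose and 5 fell. The fall of CDK13 missed it without shCON replicate 1 (adjusted p = 0.172), without shCON replicate 2 (0.173) and on log2(FPKM + 1) with no filter (0.0615). CDK4, the kinase of D cyclins, also named afterwards, had 189 and 255 CPM in shMAGED2 libraries and 219 and 216 CPM in shCON libraries and did not pass (log2 change 0.03, SE 0.15, adjusted p = 0.917); its direction flips with library size alone, upper-quartile factors or FPKM. Without shMAGED2 replicate 1 the log2 change of CDK4 was 0.23, and without shMAGED2 replicate 2 it was -0.21. Each such fit has 1 shMAGED2 library and takes its spread from the shCON pair.

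Genes that set CDK activity by phosphorylation or as accessory subunits rose in 9 of 11 cases, with 0 lower and a median log2 change of 1.12. The shares over all tested genes were 12.3% higher and 11.6% lower. The inhibitory kinase WEE1 (1.37, SE 0.12, adjusted p = 0.00146), the activating phosphatase CDC25A (1.57, SE 0.16, adjusted p = 0.00226) and the phosphatase CDKN3 (1.80, SE 0.16, adjusted p = 0.00153) had the smallest p, so that genes for activation and for inhibition of CDKs rose alike. Of 7 CDK inhibitors, 3 were tested, 0 rose and CDKN1A, the inhibitor induced by p53, fell, with 179 and 183 CPM in shMAGED2 libraries and 253 and 252 CPM in shCON libraries (log2 change -0.48, SE 0.09, adjusted p = 0.0133; 0.2 without shCON replicate 1 and 0.196 without shCON replicate 2). CDKN1B averaged 38.2 CPM in each group and CDKN2D 12.1 CPM in shMAGED2 and 11.0 CPM in shCON, and neither passed. Without shMAGED2 replicate 1 the log2 change of CDKN2D was 0.57, from 1 shMAGED2 library. CDKN1C, CDKN2A, CDKN2B and CDKN2C had 0 counts in all 4 libraries.

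Of 13 pocket proteins and E2F factors, which control the G1 to S step, 7 rose and 1 fell (median 0.54), beside 12.3% and 11.6% of all tested genes. On log2(FPKM + 1), 6 of the 13 rose. The smallest p were those of E2F1 (1.38, SE 0.10, adjusted p = 0.00106), E2F2 (2.27, SE 0.14, adjusted p = 0.000799) and E2F8 (2.21, SE 0.19, adjusted p = 0.00158). E2F8 is an atypical E2F that represses transcription. Of the pocket proteins, RBL1 (1.10, adjusted p = 0.00179) and RB1 (0.54, adjusted p = 0.0324) rose and RBL2 fell (-0.35, adjusted p = 0.037). These pocket proteins were named after their values were seen. RBL2 was not called without either shCON library, under the replicate block or in the tests of FPKM. Of 7 genes of the MuvB complex, MYBL2 and FOXM1, 3 rose and 0 fell (median 0.43): MYBL2 (2.07, SE 0.15, adjusted p = 0.0011), FOXM1 (1.81, SE 0.16, adjusted p = 0.00153) and LIN9 (1.26, SE 0.17, adjusted p = 0.00592).

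The 16 listed E2F targets of G1 and S all rose (16 higher, 0 lower, median 1.28), with the smallest p for RRM2 (1.99), TYMS (2.01) and the helicase subunit MCM4 (1.46). The 16 listed mitotic genes did so too (16 higher, 0 lower, median 1.82), with the smallest p for KIF20A (2.28), AURKA (1.72) and ANLN (1.80). The adjusted p of these 6 genes was 0.000727 to 0.000799. Both lists were drawn up with earlier results of these data known, so their counts are no independent test. Over all tested genes 12.3% rose and 11.6% fell. Of 14 genes of the ubiquitin ligases that destroy cyclins and their inhibitors, 6 rose and 0 fell (median 0.24). The mitotic activator CDC20 (1.74, SE 0.13, adjusted p = 0.00114), its partner enzyme UBE2C (1.72, SE 0.13, adjusted p = 0.00121) and FBXO5, an inhibitor of that ligase (1.35, SE 0.14, adjusted p = 0.00261), had the smallest p.

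Factors known to act on D cyclin transcription were mixed, with 4 of 19 higher, 4 lower and a median of 0.15. For comparison, 12.3% of all tested genes were higher and 11.6% lower. MYC had 163 and 110 CPM in shMAGED2 libraries and 55.1 and 56.1 CPM in shCON libraries (log2 change 1.29, SE 0.19, adjusted p = 0.0076). JUN rose by less (0.47, SE 0.08, adjusted p = 0.0136) and FOS fell (-1.51, SE 0.26, adjusted p = 0.0126), both AP-1 subunits. Named after their values were seen, FOSL1 (1.19, adjusted p = 0.025) and ETS1 (0.37, adjusted p = 0.0414) rose, and ETS2 (-0.75, adjusted p = 0.0227), GLI1 (-1.07, adjusted p = 0.0314) and FOXO4 (-0.90, adjusted p = 0.0331) fell. Without shCON replicate 1, 1 of the 19 rose and 1 fell, without shCON replicate 2, 1 rose and 0 fell, and without shMAGED2 replicate 2, 7 rose and 5 fell.

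**Figure D4:**
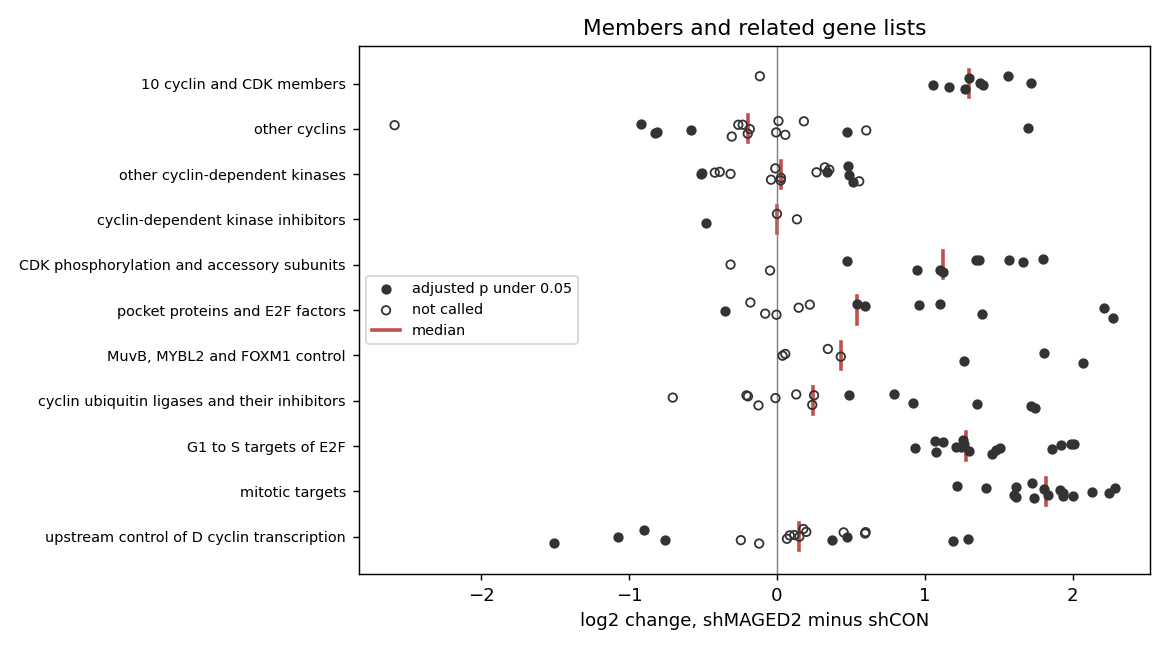
Log2 change (shMAGED2 minus shCON) of each tested gene of the set and of 10 related lists. Filled points passed an adjusted p of 0.05, open points did not, and red bars are list medians, which run from -0.20 for other cyclins to 1.82 for mitotic genes.

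For 3 genes of the set the most similar patterns over the 4 libraries were sought among 10696 annotated genes averaging 5 CPM or more, by the Euclidean distance of log2(CPM + 0.5) centred on each gene's mean. CCNB1 was nearest to ESPL1 (distance 0.06), PKMYT1 (0.08) and DEPDC1B (0.11). Among the genes nearest to CCNE2 were FGF5 (0.09) and CCDC138 (0.10). CCND1 was nearest to CPEB1 (0.01), RTL6 (0.02) and TWF1 (0.03). These did not pass the test either, which so small a distance over the same libraries makes near certain. The direction of CPEB1 flips in the tests of FPKM. Within the set the closest pairs were CCNB2 with CDK2 (0.20) and CCNB1 with CDK1 (0.24), and each pair with CCND1 was at 1.16 or more.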

How the data were processed

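RNA of 2 shMAGED2 and 2 shCON libraries was measured. The authors deposited whole-number counts for each gene, with no normalisation, and a table of FPKM, which divides by gene length and library total. HISAT2, StringTie and SAMtools and the build hg38 are named, per the submitters' processing notes, without roles or versions; annotation, strand setting and treatment of reads matching several genes are not stated. The kit was NEBNext Ultra RNA, per the labels' protocols. Columns were matched to libraries by description and to groups by title.

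Counts were tested in edgeR 4.0.16 (R 4.3.3) with filterByExpr, TMM factors (0.945 and 1.014 in shMAGED2, 1.02 and 1.023 in shCON) and a robust two-sided quasi-likelihood fit of group to all 4 libraries, adjusted by Benjamini-Hochberg over 15293 genes, threshold 0.05. The spread rests on 2 residual degrees of freedom besides a median prior of 4.01. Standard errors and 95% intervals come from the F statistic. Levels of different genes are compared on FPKM, apart from 1 share given on CPM beside it. Coordinates are 1-based from GENCODE 29, promoters from RefSeq on GRCh38.p14. Totals of 28673774 to 36234336 counts put the limit of 0 counts at 0.0817 to 0.102 CPM, for counting error only.

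Alternatives were DESeq2 1.42.0, limma-voom and limma-trend on FPKM (limma 3.58.1), other scaling and filters, a fit without robust estimation, a replicate block, and leaving out libraries in turn. The members and lists were chosen with earlier results of these data known. Named genes are the members, MAGED2, ZDHHC15, the cell markers, up to 3 genes of each list with the smallest p and, for CCNB1, CCNE2 and CCND1, the 3 nearest patterns; other names are marked as chosen afterwards. A gene that the rule names and a marker are not reported here.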

Additional observations from a re-analysis of the deposited data

How the results depend on the processing

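The 8 members that rose kept their direction in all 16 alternatives, and of 144 member values under alternatives 140 stayed on their side of the threshold. The exceptions were CCNE1 (0.94, adjusted p = 0.0657) and CCNE2 (1.13, adjusted p = 0.0512) without shCON replicate 1, CDK1 (1.27, adjusted p = 0.0587) on log2(FPKM + 1) with no filter, and CCND1, which then passed (-0.18, adjusted p = 0.000232), without shMAGED2 replicate 2. With 1 library left out, 6 to 8 members rose and 0 to 1 fell; such a fit takes the spread of the remaining pair for both groups. Over all genes 1874 rose and 1775 fell, against 567 to 3725 and 533 to 3722 with a library left out, 1236 higher on log2(FPKM + 0.1), and 642 higher and 717 lower on log2(FPKM + 1) with no filter. In the related lists together 66 rose and 11 fell, against 2 to 22 lower with a library left out and 5 lower on log2(FPKM + 1) with no filter. The groups share replicate numbers, and deviations of same-numbered libraries correlated at -0.03. With 2 libraries per group the crossed pairing gives the same value with its sign reversed. This cannot tell whether same-numbered libraries were prepared together, which the labels do not say. With the replicate block 1706 genes rose and 1630 fell, and 8 members rose. The cause of these differences was not tested.

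Some genes near 0 changed sign. CDKN1B gave -0.020 with the filter of 5 CPM, -0.0021 with DESeq2 size factors, -0.0013 in DESeq2, -0.056 by library size alone, -0.061 on log2(FPKM + 0.1), -0.057 on log2(FPKM + 1) with or without filter, -0.0042 under the replicate block, -0.046 by upper-quartile factors, and -0.12 to 0.11 with a library left out. CDKN2D gave -0.51 to 0.57 with a library left out. CDK4 gave -0.026 by library size alone, -0.018 by upper-quartile factors and -0.12 in the 3 tests of FPKM. With a library left out it gave -0.21 to 0.23. CPEB1 gave 0.11 in the 3 tests of FPKM. Of 863 values of the other named genes, with RB1 and RBL1 not counted, 747 kept both their direction and their side of the threshold, and 22 changed sign. CCND2 could not be tested at this depth.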
